A study of Homo sapiens with 6 samples.

Results

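Intraflagellar transport and cilium genes were followed in SKOV3 cells after silencing of HJURP. The 45 genes were selected by name, from the 58735 genes listed, as subunits of the IFT-B train, the IFT-A train, the BBSome, the dynein 2 motor and the transition zone, with INPP5E as a ciliary phosphatase. The list was drawn up with earlier results of the same comparison known, so the values of its members are a description and their counts carry no test. SKOV3 is an established line of adherent human ovarian cancer cells, and HJURP is the chaperone that deposits the centromeric histone CENPA. The siHJURP group held 3 libraries of cells treated with a small interfering RNA against HJURP, and the NC group held 3 libraries of cells treated with a control small interfering RNA. Total RNA was taken from both groups 24 hours after treatment. The design text speaks of both biological and experimental triplicates and does not say which kind the libraries are, so p-values measure only the spread between these libraries, which may be technical.

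A primary cilium is a microtubule projection that grows from the mother centriole, usually when a cell has left the cell cycle, and is taken down again before division. Trains of IFT-B proteins are carried to its tip by kinesin 2, and IFT-A proteins and dynein 2 carry material back. The BBSome rides on these trains and moves membrane proteins, and the transition zone at the base decides which proteins enter. Many genes of this machinery have an X-box in their promoter, a sequence bound by RFX transcription factors. Whether the cells carried cilia was not measured in these data, which are levels of RNA.

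The X-box was searched in the promoters of the members because it is the sequence element best known for this gene family. RefSeq promoters of GRCh38.p14, running from 250 bases before to 50 bases after the transcript start, were matched to 40 of the 45 members, 2 of them by a newer symbol. IFT22, TTC30B, WDR35, BBS9 and TCTN2 had no entry. The search used both strands. A single arm was defined by the letters GTTGCC, which appear on the opposite strand as the letters GGCAAC. A full match was defined by the letters GTNNCC followed, after a spacer of 0 to 3 bases, by the letters GGNNAC, where N is any base. This pattern is loose, so a full match need not be an X-box. A full match can contain a single arm, so the counts overlap. Below are stretches of 30 bases that lie upstream of the RefSeq start of 4 members called higher in siHJURP, with the matched letters in capitals. They are shown as examples of both kinds of match, and were taken in order of adjusted p among members called higher whose match lies wholly upstream of the start. IFT81 and others with a match at or after the start were passed over for this reason.
WDR19 chr4:39182458-39182487, plus strand: ctcgcgcgGTCTCCTGGGTGACgggaacgc
CLUAP1 chr16:3500970-3500999, plus strand: aagggtccattgGTTGCCatagagatcgtc
MKS1 chr17:58219272-58219301, minus strand: tccagcgtctccGTTGCCaggaaaacagag
DYNC2H1 chr11:103109363-103109392, plus strand: gtgccccgagagGGCAACgcccaccgcgcg

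WDR19 holds a full match with a spacer of 2 bases, and CLUAP1, MKS1 and DYNC2H1 hold a single arm. The stretches of WDR19, CLUAP1 and MKS1 lie inside the gene limits of GENCODE 29, whose first base is farther upstream than the RefSeq start, and that of DYNC2H1 lies outside them. A single arm was in 19 of 40 member promoters (47.5%), against 3323 of 27305 RefSeq promoters of the same length (12.2%). A full match was in 10 of 40 member promoters (25.0%), against 1044 of all promoters (3.82%). At least 1 of the forms was in 24 of 40 member promoters (60.0%), and both were in 5. By call, the single arm was in 12 of the 21 matched members called higher and in 5 of the 15 not called, while the full match was in 4 of the 21 and in 6 of the 15. A match describes letters in a window and not a site in use.

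The libraries held 17524772 to 18027065 reads in genes in siHJURP and 17116487 to 17625638 in NC. HJURP had 8.66, 8.64 and 8.65 FPKM in siHJURP, against 29.23, 29.02 and 29.99 in NC, so its mean was 70.6% lower in siHJURP (exact permutation p = 0.1, two-sided, the smallest that 3 against 3 libraries allow). Markers of the SKOV3 epithelium were present, with 7 of 8 at or above 1 FPKM in every library and EPCAM below it. Some of them differed between the groups: KRT18 had 48.8 ± 6.88 FPKM in siHJURP and 88.3 ± 2.29 FPKM in NC, and KRT8 had 132.4 ± 6.54 FPKM in siHJURP and 182.2 ± 3.61 FPKM in NC (SD, n = 3 each). In the limma fit described below KRT18, KRT8, PAX8 and KRT19 were called lower, with log2 fold changes of -0.85, -0.46, -0.27 and -0.35, and ERBB2 was called higher at 0.37. The call of KRT19 was absent in 4 of the 6 fits that leave out a library. The part of these shifts in the members' values was not tested. Of 11 markers of blood, vessel, connective tissue and other cells, 1 or 2 reached that level, and their summed level was 11.1 to 15.4 FPKM in siHJURP and 12.6 to 16.6 FPKM in NC, most of it COL1A1. Libraries of siHJURP stood apart in 8 interferon response genes, whose summed level was 342.5, 42.0 and 509.3 FPKM in siHJURP replicates 1, 2 and 3, against 45.03, 48.6 and 54.4 FPKM in NC replicates 1, 2 and 3. Results are therefore also given for siHJURP replicate 2 alone.

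Of the 45 members, 41 had a mean FPKM of at least 1 and were tested. In a limma fit over all 13365 genes above that level, on log2(FPKM + 1) with Benjamini-Hochberg adjustment at 0.05, 23 members were called higher in siHJURP, 1 was called lower and 17 were not called. Over all genes tested 17.6% were called higher and 20.3% lower. The balance depended on the scaling: with values rescaled to TPM 23.7% of all genes were called higher and 16.0% lower, and the members gave 31 higher and 0 lower. Scaling by total reads gave 23.2% higher and 16.5% lower over all genes, and 30 higher and 0 lower among the members. The median log2 fold change of the 41 members was 0.26, with a range of -0.25 to 0.63, and the median of all genes tested was -0.01. For the 23 members called higher the mean FPKM was 1.18 to 1.71 times that of NC, with a median of 1.34. In bulk RNA, a larger share of cells that express a gene and more of its RNA per cell cannot be told apart.

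All 3 siHJURP values lay above all 3 NC values in 30 of the 41 members, and below them in 2, TTC21B and INPP5E. Over all genes tested these shares were 25.4% above and 26.8% below. The other 9 members had groups that overlap. The members were expressed at modest levels, with mean FPKM of 2.30 to 23.6 and a median of 4.48, against a median of 6.31 for all genes tested. Each tested member had 92 to 1888 reads per library. The standard error of a member's log2 fold change was 0.04 to 0.10.

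**Figure D1:**
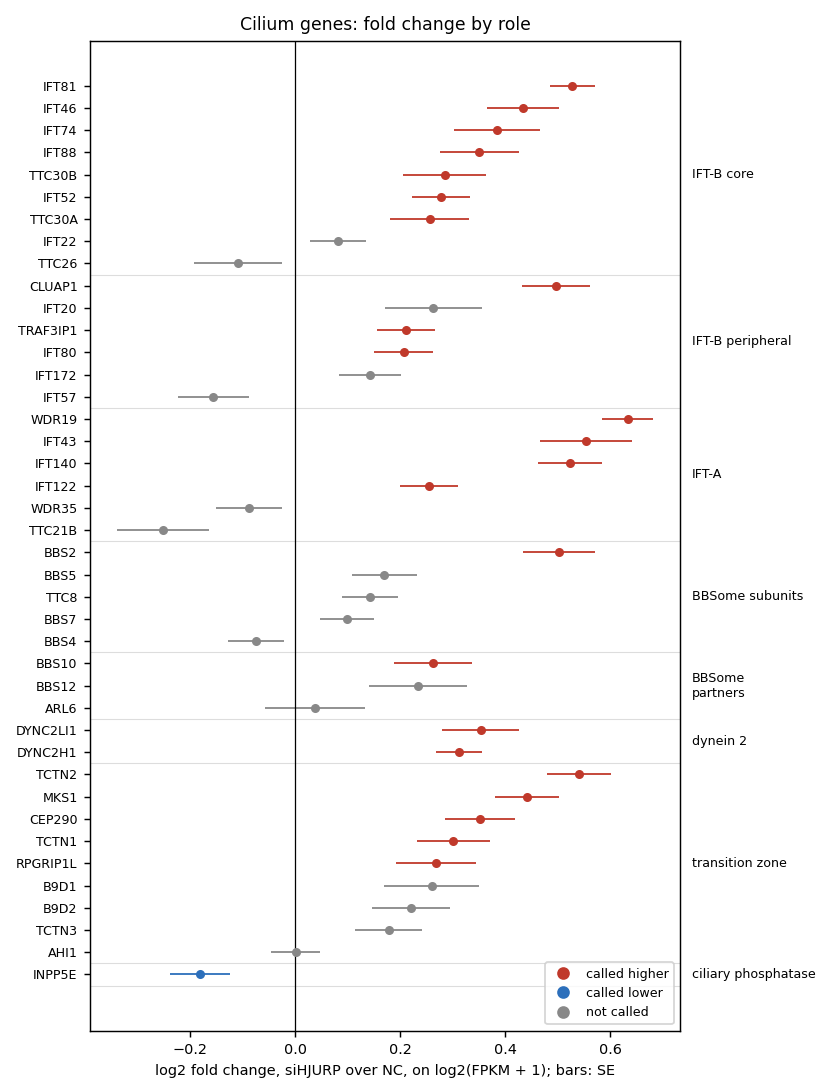
Log2 fold change of siHJURP over NC on log2(FPKM + 1) for the 41 tested members, grouped by role, with bars for the standard error (3 libraries per group). Red points are called higher, blue lower and grey not called. WDR19 lies farthest to the right at 0.63, and TTC21B farthest to the left at -0.25.

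IFT-B, the train that carries tubulin and other cargo to the tip, had 10 of 15 tested members called higher and 0 called lower. Its core had 7 of 9 called higher, with a median log2 fold change of 0.28. IFT81 (ENSG00000122970, chromosome 12, 110124335 to 110218797), which with IFT74 forms the tubulin-binding pair, had 6.85, 6.65 and 6.74 FPKM in siHJURP, against 4.27, 4.36 and 4.50 FPKM in NC. The siHJURP libraries differed from each other by less than the gap to NC, and the log2 fold change was 0.53 (SE 0.04). IFT74 had 4.01, 4.42 and 4.64 FPKM in siHJURP, against 2.81, 3.005 and 3.51 FPKM in NC (log2 fold change 0.38, SE 0.08). Its groups did not overlap, although NC replicate 3 stood nearer to siHJURP than the other NC libraries.

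IFT46, a core subunit needed for transport of dynein arms in the alga Chlamydomonas, had 5.97, 7.26 and 6.95 FPKM in siHJURP, against 4.67, 4.76 and 4.68 FPKM in NC (log2 fold change 0.43, SE 0.07). Replicate 1 was the lowest siHJURP library and still lay above NC. IFT52, which holds the core together, was the most abundant IFT-B member per length, with 25.4, 26.0 and 24.0 FPKM in siHJURP and 19.8, 22.1 and 19.8 FPKM in NC (log2 fold change 0.28, SE 0.06). IFT88, the subunit disrupted in the Tg737 mouse model of polycystic kidney disease, had 5.25, 5.94 and 5.35 FPKM in siHJURP, against 3.66, 4.23 and 4.46 FPKM in NC (log2 fold change 0.35, SE 0.08). In IFT52 and IFT88 every siHJURP library lay above every NC library.

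TTC30A and TTC30B are near-identical intronless copies of the IFT70 subunit, and 10.6% and 15.8% of their 50-base windows occur in the transcript of another gene, chiefly the other copy. TTC30A had 3.02, 2.69 and 2.97 FPKM in siHJURP and 2.07, 2.48 and 2.22 FPKM in NC (log2 fold change 0.26, SE 0.08). TTC30B had 2.51, 2.95 and 2.42 FPKM in siHJURP and 1.96, 2.03 and 1.92 FPKM in NC (log2 fold change 0.28, SE 0.08). Both were called higher, and how reads were divided between the copies is uncertain. The small GTPase IFT22 was not called, with 5.54, 5.004 and 5.42 FPKM in siHJURP and 5.07, 5.05 and 4.78 FPKM in NC (log2 fold change 0.08, SE 0.05). TTC26, the IFT56 subunit, was not called either, with 2.54, 3.19 and 2.69 FPKM in siHJURP and 3.28, 3.13 and 2.87 FPKM in NC (log2 fold change -0.11, SE 0.08). Both had groups that overlap. IFT27, a small GTPase of the core, was not tested, with 9, 4 and 14 reads in siHJURP and 2, 8 and 2 reads in NC.

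Among the 6 peripheral IFT-B subunits 3 were called higher, with a median log2 fold change of 0.21. CLUAP1, the IFT38 subunit, had 5.52, 5.04 and 4.89 FPKM in siHJURP, against 3.09, 3.52 and 3.46 FPKM in NC (log2 fold change 0.50, SE 0.07). Its groups were far apart, and 16.2% of its exon bases are shared with other genes. TRAF3IP1, the microtubule-binding IFT54 subunit, had 8.52, 9.31 and 8.22 FPKM in siHJURP and 7.35, 7.63 and 7.09 FPKM in NC (log2 fold change 0.21, SE 0.06). IFT80 had 3.86, 3.62 and 3.88 FPKM in siHJURP and 3.01, 3.17 and 3.26 FPKM in NC (log2 fold change 0.21, SE 0.06). IFT80 shares 35.7% of its exon bases with other genes, mostly AC079594.2 on the same strand, so its reads cannot be assigned with certainty.

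IFT20, which also works at the Golgi, and IFT172, the largest IFT-B subunit, were not called although all 3 siHJURP libraries lay above NC. Mean FPKM of IFT20 was 4.35 ± 0.29 in siHJURP and 3.47 ± 0.51 in NC, and that of IFT172 was 4.74 ± 0.10 in siHJURP and 4.20 ± 0.31 in NC (SD, n = 3 each). IFT57, a partner of IFT20, was the peripheral subunit with a negative log2 fold change, -0.16 (SE 0.07), and was not called. It had 11.7, 11.5 and 10.8 FPKM in siHJURP and 11.5, 13.8 and 13.0 FPKM in NC, so the groups overlap.

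IFT-A, the train for return transport and for entry of membrane receptors, held the widest spread of fold changes within a complex, with 4 of 6 subunits called higher and the other 2 negative. WDR19 (ENSG00000157796, chromosome 4, 39182404 to 39285810), the IFT144 subunit, had 5.70, 5.64 and 5.92 FPKM in siHJURP, against 3.23, 3.43 and 3.40 FPKM in NC. This log2 fold change, 0.63 (SE 0.05), was the largest of the 41 tested members. The promoter of WDR19 held the full match to the loose pattern shown above. IFT140, a core subunit, had 4.22, 3.87 and 3.84 FPKM in siHJURP, against 2.42, 2.38 and 2.59 FPKM in NC (log2 fold change 0.52, SE 0.06). IFT43, a peripheral subunit, had 4.53, 5.23 and 4.27 FPKM in siHJURP, against 2.56, 3.18 and 2.86 FPKM in NC (log2 fold change 0.55, SE 0.09). The lowest siHJURP library of WDR19, of IFT140 and of IFT43 exceeded the highest NC library of the same gene.

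IFT122, a core subunit, was higher by less, with 3.93, 3.93 and 3.74 FPKM in siHJURP and 3.18, 3.14 and 2.91 FPKM in NC (log2 fold change 0.26, SE 0.06). Lower values stood in the other peripheral subunits. TTC21B, the IFT139 subunit, had 3.28, 3.10 and 3.32 FPKM in siHJURP and 4.33, 3.42 and 4.43 FPKM in NC (log2 fold change -0.25, SE 0.09). All 3 siHJURP libraries lay below NC, replicate 2 of NC stood near them, and the gene was not called. On leaving out NC replicate 2 it was called lower (log2 fold change -0.35), as it was with quantile scaling (-0.26), array weights (-0.29) and voom on whole reads (-0.32). WDR35, the IFT121 subunit, was not called either, with 6.07, 5.89 and 5.83 FPKM in siHJURP and 6.72, 5.73 and 6.68 FPKM in NC (log2 fold change -0.09, SE 0.06). The siHJURP libraries of WDR35 lay between NC replicate 2 and the other NC libraries.

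Both listed dynein 2 genes, of the motor that drives return transport, were called higher. DYNC2H1, its heavy chain, had 6.93, 6.50 and 6.92 FPKM in siHJURP, against 5.23, 5.31 and 5.27 FPKM in NC (log2 fold change 0.31, SE 0.04). NC libraries were nearly equal, and every siHJURP library lay above them. DYNC2LI1, a light intermediate chain, had 4.52, 4.59 and 4.71 FPKM in siHJURP, against 3.24, 3.87 and 3.11 FPKM in NC (log2 fold change 0.35, SE 0.07). For DYNC2LI1 the spread lay in NC, with replicate 2 the highest there.

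**Figure D2:**
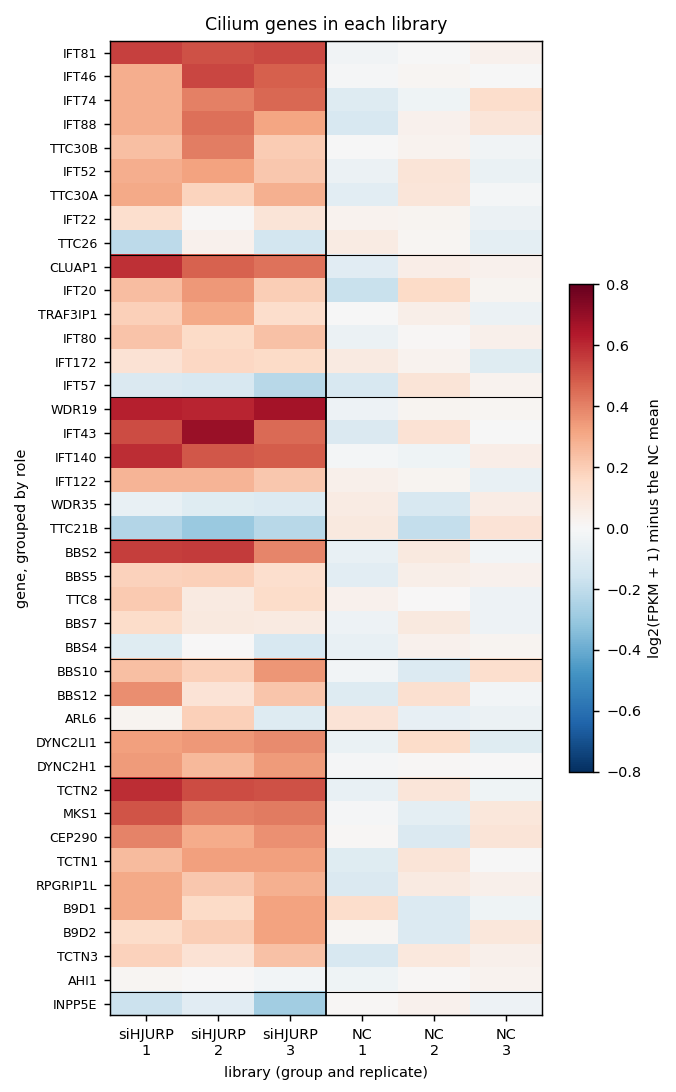
log2(FPKM + 1) of each tested member minus its NC mean, in the 3 siHJURP and 3 NC libraries, with genes grouped by role. Red is above and blue below the NC mean. Most rows are red in all 3 siHJURP libraries, and TTC21B and INPP5E are blue in all 3.

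The 3 siHJURP libraries gave similar pictures of the members. Set against the NC mean on log2(FPKM + 1), the 41 members had a median of 0.25, 0.22 and 0.23 in siHJURP replicates 1, 2 and 3, against -0.04, 0.03 and 0.00 in NC replicates 1, 2 and 3. Above the highest NC library lay 33, 32 and 32 members in siHJURP replicates 1, 2 and 3, against 36.5%, 36.3% and 35.8% of all genes tested. The interferon genes did not share this evenness, since replicate 2 was at the NC level. With siHJURP replicate 2 alone against NC, the log2 fold changes of the 23 members called higher ran from 0.15 (IFT80) to 0.69 (IFT43). All were positive, as they had to be, because every siHJURP value of these members lies above every NC value. Fewer of the 23 passed the threshold in that fit, which rests on 1 siHJURP library.

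The BBSome, the coat that carries membrane proteins out of the cilium, had 1 of 5 tested subunits called higher and 0 called lower, where 17.6% of all genes were called higher. Whether complexes differ in this share was not tested. BBS2, of its central part, had 5.66, 5.69 and 4.93 FPKM in siHJURP, against 3.36, 3.78 and 3.47 FPKM in NC (log2 fold change 0.50, SE 0.07). Every siHJURP library lay more than 1 FPKM above every NC library. The other 4 tested subunits were not called in the main fit. After TPM scaling BBS5, BBS7 and TTC8 were called higher (log2 fold changes 0.22, 0.15 and 0.19), where 23.7% of all genes tested were called higher. BBS5 and TTC8 were also called higher after total-read scaling (0.21 and 0.19, with 23.2% of all genes) and with array weights (0.17 and 0.17, with 20.4%). BBS5 passed with no intensity trend as well (0.17), and BBS4 was called in none of these fits. BBS4 had 6.28, 6.81 and 6.14 FPKM in siHJURP and 6.49, 6.99 and 6.93 FPKM in NC (log2 fold change -0.07, SE 0.05), with groups that overlap. BBS7, which pairs with BBS2 in the complex, had a log2 fold change of 0.10 (SE 0.05) and overlapping groups. In BBS5 and TTC8 all 3 siHJURP libraries lay above NC, with log2 fold changes of 0.17 (SE 0.06) and 0.14 (SE 0.05), and BBS5 shares 21.9% of its exon bases with other genes.

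A pair of BBSome subunits lay below the level for testing. BBS9 had 120, 112 and 106 reads in siHJURP, against 73, 81 and 86 reads in NC, with all 3 siHJURP libraries higher. BBS1 had 41, 39 and 28 reads in siHJURP and 28, 34 and 24 in NC, and 96.7% of its 50-base windows also occur in a transcript of AP002748.4, a gene that overlaps it on the same strand. Of the factors that act on the BBSome, BBS10, which helps assemble it, was called higher, with 10.1, 9.71 and 10.9 FPKM in siHJURP and 8.21, 7.67 and 9.29 FPKM in NC (log2 fold change 0.26, SE 0.07). BBS12, of the same chaperonin-like family, had 3.44, 2.70 and 3.01 FPKM in siHJURP and 2.20, 2.75 and 2.39 FPKM in NC (log2 fold change 0.23, SE 0.09), with replicate 2 of both groups at nearly the same level. ARL6, the GTPase that recruits the BBSome to membranes, had 2.63, 3.07 and 2.32 FPKM in siHJURP and 2.85, 2.41 and 2.45 FPKM in NC (log2 fold change 0.04, SE 0.10). Neither BBS12 nor ARL6 was called.

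The transition zone, the gate at the base of the cilium, had 5 of 9 tested members called higher and 0 called lower, with a median log2 fold change of 0.27. TCTN2, a tectonic of the Meckel syndrome module, had 5.63, 5.32 and 5.28 FPKM in siHJURP, against 3.23, 3.71 and 3.30 FPKM in NC (log2 fold change 0.54, SE 0.06). MKS1, a B9-domain protein of the same module, had 6.68, 6.16 and 6.20 FPKM in siHJURP, against 4.37, 4.11 and 4.76 FPKM in NC (log2 fold change 0.44, SE 0.06). Both genes had every siHJURP library well above NC, and the single-arm match of MKS1 is among the stretches above. CEP290, which links the microtubules to the membrane, had 5.69, 5.27 and 5.55 FPKM in siHJURP, against 4.13, 3.71 and 4.48 FPKM in NC (log2 fold change 0.35, SE 0.07). TCTN1 had 3.56, 3.80 and 3.79 FPKM in siHJURP, against 2.57, 3.11 and 2.82 FPKM in NC (log2 fold change 0.30, SE 0.07). RPGRIP1L, a scaffold of the gate, had 2.75, 2.53 and 2.70 FPKM in siHJURP, against 1.81, 2.19 and 2.13 FPKM in NC (log2 fold change 0.27, SE 0.08). In CEP290, TCTN1 and RPGRIP1L the groups did not overlap.

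Another 4 tested members of the gate were not called. The other B9-domain proteins, B9D1 and B9D2, and the tectonic TCTN3 had all 3 siHJURP libraries above NC, with log2 fold changes of 0.26 (SE 0.09), 0.22 (SE 0.07) and 0.18 (SE 0.06). TCTN3 was the most abundant per length of the transition zone, with 25.2, 24.0 and 26.1 FPKM in siHJURP and 20.2, 23.5 and 22.7 FPKM in NC. AHI1, the Joubert syndrome protein jouberin, was at the same level in both groups, with 4.58, 4.53 and 4.43 FPKM in siHJURP and 4.37, 4.53 and 4.63 FPKM in NC (log2 fold change 0.0010, SE 0.05). CC2D2A, a scaffold of the module, was not tested, with 65, 48 and 45 reads in siHJURP and 51, 38 and 43 reads in NC.

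INPP5E, the phosphatase that sets the phosphoinositide makeup of the ciliary membrane, was the member called lower. It had 6.78, 7.21 and 6.21 FPKM in siHJURP and 7.81, 7.96 and 7.49 FPKM in NC (log2 fold change -0.18, SE 0.06). All 3 siHJURP libraries lay below NC, by a narrow margin for replicate 2. Leaving out any 1 of the 3 NC libraries, or siHJURP replicate 1 or 3, ended the call, with log2 fold changes of -0.18, -0.16, -0.20, -0.19 and -0.13 in that order, and it held on leaving out siHJURP replicate 2. It was also absent with no filter and with no intensity trend (both -0.18), and after TPM, quantile and total-read scaling (-0.13, -0.16 and -0.13). With siHJURP replicate 2 alone the log2 fold change of INPP5E was -0.09.

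Of the 23 members called higher, 17 kept the call whichever library was left out. TTC30A fell short of the threshold on leaving out NC replicate 1 or 3 (log2 fold changes 0.21 and 0.25) or siHJURP replicate 1 or 3 (0.23 and 0.24). TTC30B did so on leaving out NC replicate 1 or 3 (0.28 and 0.27) or siHJURP replicate 1 or 2 (0.31 and 0.22). For IFT80 this held of NC replicate 1 (0.18) and siHJURP replicates 1 and 3 (0.19 and 0.19). For TRAF3IP1 it held of NC replicates 1 and 3 (0.21 and 0.19) and siHJURP replicates 1 and 2 (0.22 and 0.17). For BBS10 it held of NC replicates 1 and 2 (0.25 and 0.21) and siHJURP replicates 1 and 3 (0.27 and 0.22). RPGRIP1L kept its call only on leaving out NC replicate 2, and its log2 fold change was otherwise 0.21 and 0.29 on leaving out NC replicates 1 and 3, and 0.25, 0.29 and 0.26 on leaving out siHJURP replicates 1, 2 and 3. These 6 genes lie close to the threshold. Their direction could not change in such fits, because their siHJURP and NC values do not overlap. Some members not called passed it in turn. On leaving out NC replicate 1, B9D1 was called higher (0.33) and IFT57 lower (-0.22). On leaving out NC replicate 2, IFT20 and TCTN3 were called higher (0.34 and 0.22) and WDR35 and TTC21B lower (-0.15 and -0.35). B9D2 was called higher on leaving out NC replicate 3 (0.27).

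Summed over its listed members only, each complex was higher in every siHJURP library than in any NC library. Subunits outside the member list, such as WDR34, WDR60 and the light chains of dynein 2, were left out, so the sums do not describe whole complexes. These sums follow the abundant members, such as IFT52 in IFT-B and TCTN3 in the transition zone. IFT-B summed to 100.2 ± 2.66 FPKM in siHJURP and 83.5 ± 3.80 FPKM in NC, a ratio of 1.20. IFT-A summed to 27.4 ± 0.45 FPKM in siHJURP and 22.2 ± 0.82 FPKM in NC (1.24). The 7 BBSome subunits gave 28.5 ± 1.00 FPKM in siHJURP and 25.2 ± 0.93 FPKM in NC (1.13), the lowest ratio of the 5 complexes. The 2 listed genes of dynein 2 gave 11.4 ± 0.28 FPKM in siHJURP and 8.67 ± 0.44 FPKM in NC (1.31). The listed transition zone genes gave 61.8 ± 1.84 FPKM in siHJURP and 50.4 ± 2.11 FPKM in NC (1.23; SD, n = 3 each).

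**Figure D3:**
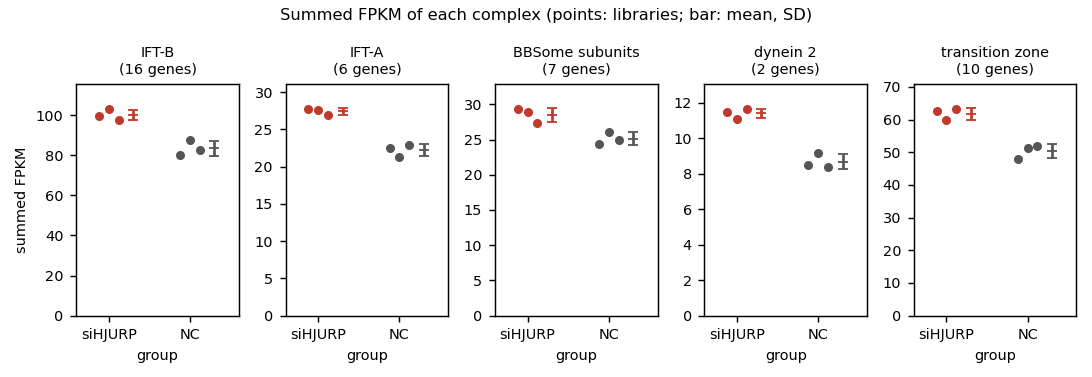
Summed FPKM of the listed genes of each complex in siHJURP and NC. Points are libraries, and the bar gives the mean with its SD (n = 3 each). In each panel the 3 siHJURP points lie above the 3 NC points, with ratios of means between 1.13 for the BBSome and 1.31 for dynein 2.

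Other genes of the cilium, listed by known role, held calls in both directions. Of 87 such genes 72 were tested, and 19 rose, 11 fell and 42 did not pass the test, with a median log2 fold change of 0.06. Over all genes tested 17.6% were called higher and 20.3% lower, and the counts of the lists are given as a description with no test of a difference from these shares. The adjusted p-values given for them come from the same limma fit. Among 16 tested genes of the remaining transport subunits and kinesin 2, 5 rose and 2 fell. The 5 include KIF17, with 1.31 ± 0.08 FPKM in siHJURP and 0.81 ± 0.06 FPKM in NC. KIF17 was tested only because its siHJURP values lifted its mean above 1 FPKM, so its call is no independent sign of a rise. That call was absent in all 6 fits that leave out a library. DYNLL2, a dynein light chain shared with cytoplasmic dynein and other complexes, rose to 27.6 ± 0.37 FPKM in siHJURP, against 17.3 ± 0.21 FPKM in NC (log2 fold change 0.64, SE 0.03, adjusted p = 3.23e-05). DYNLL1, a related and more abundant light chain, fell to 55.1 ± 2.08 FPKM in siHJURP, against 65.0 ± 3.25 FPKM in NC (log2 fold change -0.23, adjusted p = 0.00895). KIFAP3, the adaptor of the kinesin 2 motor, rose by 0.32 on the log2 scale (adjusted p = 0.00377), with 8.96 ± 0.46 FPKM in siHJURP and 6.99 ± 0.33 FPKM in NC. The motor subunits were not called higher with it in the main fit. KIF3A fell by 0.15 (adjusted p = 0.0236). Its call was kept in 2 of the 6 fits that leave out a library. The call was absent after TPM, quantile and total-read scaling and with the replicate number as a block. KIF3B was not called (log2 fold change 0.12), although all 3 siHJURP libraries lay above NC. After TPM and total-read scaling KIF3B was called higher (0.18 and 0.17). MKKS, a chaperonin-like BBSome assembly factor beside BBS10 and BBS12, rose by 0.30 (adjusted p = 0.00609), and 12.7% of its exon bases are shared with other genes.

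The other transition zone and nephronophthisis genes were split, with 5 of 16 rising and 2 falling. TMEM231, a membrane protein of the Meckel syndrome module, rose to 2.66 ± 0.33 FPKM in siHJURP, against 1.42 ± 0.10 FPKM in NC (log2 fold change 0.60, adjusted p = 0.00248). TMEM237, another membrane protein of the gate, fell to 4.85 ± 0.05 FPKM in siHJURP, against 6.34 ± 0.15 FPKM in NC (log2 fold change -0.33, adjusted p = 0.00126), and shares 23.3% of its exon bases with other genes. ANKS6, of the inversin compartment, fell to 5.88 ± 0.26 FPKM in siHJURP, against 7.57 ± 0.07 FPKM in NC (log2 fold change -0.32, adjusted p = 0.00188). Of 8 genes listed under the distal appendages, which dock the mother centriole to the membrane, 4 rose and 0 fell. The list is broad and takes in other mother centriole genes, such as ODF2. CEP89 rose by 0.27 on the log2 scale (adjusted p = 0.00521), CEP164 by 0.34 (adjusted p = 0.0104) and ODF2 by 0.20 (adjusted p = 0.0119). FBF1 rose by 0.31, kept its call in 2 of the 6 fits that leave out a library and shares 49.6% of its exon bases with other genes. Among 4 planar polarity effectors 1 was tested and did not pass the test.

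Genes for lipidated cargo and membrane traffic into the cilium had 2 of 11 rising and 3 falling. RAB8A, a GTPase of ciliary vesicles, fell by 0.24 on the log2 scale (adjusted p = 0.00971) and shares 41.7% of its exon bases with other genes. UNC119, a carrier of myristoylated proteins, fell by 0.21 (adjusted p = 0.0134), and leaving out siHJURP replicate 1 gave an adjusted p of 0.0503. PDE6D, the carrier of prenylated proteins that delivers INPP5E, rose by 0.16 (adjusted p = 0.0166), and leaving out NC replicate 1 or siHJURP replicate 1 gave adjusted p-values of 0.0537 and 0.0663. UNC119B rose by 0.22 and kept its call in 1 of the 6 fits that leave out a library. RAB23 fell by 0.17, kept its call in 2 of these 6 fits and shares 57.7% of its exon bases with other genes. Its call was absent after TPM and total-read scaling. In the Hedgehog pathway, which signals through the cilium in vertebrates, 1 of 8 tested genes rose and 2 fell. GLI2, its main activator, fell to 3.79 ± 0.26 FPKM in siHJURP, against 5.65 ± 0.49 FPKM in NC (log2 fold change -0.47, adjusted p = 0.0026). SMO, the signal-transducing receptor, rose by 0.17 on the log2 scale (adjusted p = 0.0235). Leaving out NC replicate 1, NC replicate 3, siHJURP replicate 1 or siHJURP replicate 3 ended that call (adjusted p = 0.0649, 0.0674, 0.0596 and 0.0692). GPR161, a ciliary receptor that restrains the pathway, fell by 0.17 (adjusted p = 0.0352). Leaving out NC replicate 1 or 3 (adjusted p = 0.0743 and 0.108), or siHJURP replicate 1, 2 or 3 (adjusted p = 0.0594, 0.0734 and 0.105), ended the call of GPR161.

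Among 8 tested genes that take the cilium down or hold it back, 2 rose and 1 fell. AURKA, the mitotic kinase that also starts disassembly of the cilium, fell to 32.4 ± 1.63 FPKM in siHJURP, against 44.2 ± 1.54 FPKM in NC (log2 fold change -0.44, adjusted p = 0.000615). HDAC6, the tubulin deacetylase that acts with it, rose to 9.13 ± 0.76 FPKM in siHJURP, against 6.11 ± 0.20 FPKM in NC (log2 fold change 0.51, adjusted p = 0.00105). CCP110, a cap on the centriole that prevents cilium growth, rose by 0.27 on the log2 scale (adjusted p = 0.0206), and leaving out siHJURP replicate 3 gave an adjusted p of 0.0693. All 3 are known to limit the cilium, and they stood in both directions.

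Of 7 RFX factors, which bind the X-box, 4 were tested, 0 rose and 1 fell. RFX7 had 2.86, 2.88 and 2.78 FPKM in siHJURP, against 5.44, 4.68 and 5.57 FPKM in NC (log2 fold change -0.70, SE 0.07, adjusted p = 0.000412). RFX1 had 3.57 ± 0.20 FPKM in siHJURP and 3.83 ± 0.07 FPKM in NC, and RFX2, a factor of ciliated cells, had 2.996 ± 0.40 FPKM in siHJURP and 3.25 ± 0.37 FPKM in NC. Neither passed the test, nor did RFX5 (log2 fold change 0.04). RFX3 was below the level for testing, with 0.63 ± 0.10 FPKM in siHJURP and 0.60 ± 0.06 FPKM in NC. Whether the fall of RFX7 has a part in the members' values was not tested.

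Genes of motile cilia, which beat and need dynein arms, were nearly silent. Of 17 gene rows for their markers, 3 had a mean of at least 1 FPKM over all libraries. At or above 1 FPKM were 3 rows in each siHJURP library and 1 row in each NC library. FOXJ1, the master transcription factor of motile cilia, and DNAI2, of the outer arm, had 0 reads in all 6 libraries. Summed over the 17 rows, the level was 6.97, 6.96 and 7.398 FPKM in siHJURP, against 5.27, 5.24 and 4.92 FPKM in NC. CCDC40, a ruler protein of the axoneme, was tested only because its siHJURP values lifted its mean over all libraries above 1 FPKM, so its call is no independent sign of a rise. It had 1.59 ± 0.10 FPKM in siHJURP, and 0.89 ± 0.04 FPKM in NC (log2 fold change 0.45).

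**Figure D4:**
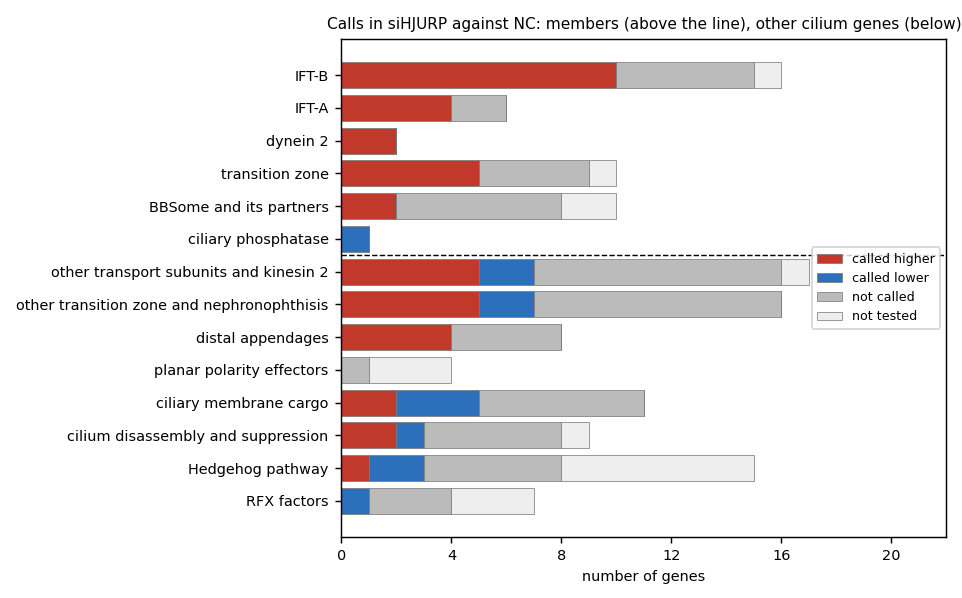
Number of genes called higher, called lower, not called and not tested in siHJURP against NC, for the members by role (above the dashed line) and for other genes of the cilium by list (below it). IFT-B has 10 called higher of 16 listed, and the lists below the line hold calls in both directions apart from the distal appendages, with 4 higher and 0 lower, and the planar polarity effectors and RFX factors, with 0 higher.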

How the data were processed

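RNA-seq of 6 SKOV3 libraries was analysed from the authors' deposited FPKM values (fragments scaled for gene length and library size). The submitters' processing notes name featureCounts 1.5.0-p3, HISAT2 2.0.5 and the build hg38. Per the labels' protocols, libraries came from an NEBNext Ultra RNA kit. Strand use is not given in the sources used here. Genes were those of GENCODE 29. Multiplied by gene length, the FPKM gave whole reads within 0.01 for 100% of values, which give the read numbers and depths. The library size behind the FPKM was not the number of reads in genes. It was 1.022 to 1.027 times that number in siHJURP and 0.985 to 0.989 times in NC, which lowers siHJURP values against NC. Total-read scaling removes this difference.

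log2(FPKM + 1) was fitted with limma 3.58.1 (R 4.3.3, two-sided, intensity trend) over genes whose mean FPKM reached 1, with Benjamini-Hochberg adjustment over all of them and a threshold of 0.05. A fold change on this scale understates changes of low genes. The procedure was tested on simulated data. Members and lists were chosen with earlier results of these data known. Text values in every library were given for up to 5 called members per role by adjusted p, the member with the smallest fold change, the TTC30 copies, and further members described after their values were seen. Up to 3 called genes were named per other list by adjusted p, and further genes were added after their values were seen.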

Additional observations from a re-analysis of the deposited data

How the results depend on the processing

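Counts and the members' median log2 fold change were recomputed under 21 alternatives. Scaling by total reads and leaving out genes that share at least 10% of their exon bases were chosen after seeing the data. The median (0.26) was 0.32 and 0.29 with pseudocounts of 0.1 and 0.5, 0.18 with the filter at 5 FPKM, 0.30 after TPM scaling, 0.33 with voom on whole reads, 0.30 with total-read scaling, 0.22 with siHJURP replicate 2 alone, and 0.23 to 0.29 with 1 library left out. Members called higher (23) numbered 8 of 15 with the filter at 5 FPKM, where 21.8% of all genes tested were called higher. They numbered 17 to 24 with 1 library left out. In those fits 12.3% to 16.4% of all genes were called higher and 15.5% to 18.9% lower. Members called lower (1) numbered 0 with no filter, TPM scaling, no intensity trend and total-read scaling. They numbered 1 with quantile scaling (TTC21B in place of INPP5E), 2 with array weights and voom, and 0 to 2 with 1 library left out. Companion genes called higher (19) numbered 12 with the filter at 5 FPKM, 5 with siHJURP replicate 2 alone and 13 to 16 with 1 library left out, and those called lower (11) numbered 4 with siHJURP replicate 2 alone and 7 to 14. Genes called in all (5068) numbered 1844 with siHJURP replicate 2 alone, a fit with fewer libraries in which that library is assumed to vary like NC. Fewer genes were tested at the higher filter; the cause of the other changes was not tested. No called member or companion gene changed sign, which was fixed in advance for fits that leave out libraries, because their groups do not overlap. Among members not called the sign changed for TTC26 and BBS4 with siHJURP replicate 2 alone, and for ARL6 and AHI1 with 1 library left out.

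Replicate numbers are shared between the groups, but deviations of same-numbered libraries from their group means correlated at 0.0025, -0.0116 and 0.0163, so the numbers were not taken as pairs. With the replicate number as a block, 21 members were called higher and 1 lower, and 4527 genes in all. On the recovered whole reads voom called 5747 genes in all, and 26 members higher. A quasi-likelihood count test was not run, because the deposited values are FPKM. IFT27, BBS1, BBS9 and CC2D2A were not tested because their mean FPKM was below 1.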
